A study of Mus musculus with 6 samples.

Results

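Replication-dependent histone genes encode the H2A, H2B, H3 and H4 proteins of the nucleosome core and the H1 linker histones. They were taken here as every protein-coding gene of the deposited table whose GENCODE M21 symbol begins with Hist1h, Hist2h, Hist3h or Hist4h. This gave 67 of 54838 genes, 6 of class H1, 18 of H2A, 18 of H2B, 12 of H3 and 13 of H4. Counts came from RNAseq of the hippocampi of 6 female mice aged 7 months, 1 library per mouse. The 3 wild-type females carried no transgene. The 3 FVB/NJ-Tg(ORAI1)Ibd females, called transgenic below, carried human ORAI1 under the Thy1.2 cassette, which is active in neurons, so other hippocampal cells were not targeted.

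In dividing cells these genes are transcribed in S phase, when new DNA has to be packed, and most lie in clusters without introns. Their mRNAs are the animal mRNAs that normally lack a poly(A) tail: the transcript is cut a few bases after a conserved stem-loop, which is bound by the stem-loop binding protein Slbp. In cells that no longer divide, such as neurons, nucleosomes are refilled largely by replication-independent variants such as H3.3, and some clustered histone genes make polyadenylated mRNAs that run past the stem-loop. The labels give polyadenylated RNA as the molecule of these libraries, while their protocol describes the extraction of total RNA and names no selection. An mRNA that ends at the stem-loop has no tail for a poly(A) selection to hold, so the levels below may or may not include such mRNAs, and how much of them the libraries contain was not measured.

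The stem-loop is shown first because it divides the classes. It spans 16 bases, a stem of 6 base pairs around a loop of 4 bases, and it was searched on the sense strand after the stop codon of each GENCODE M21 transcript (GRCm38). Of the 67 genes, 42 had it, or 44 when 1 mismatch was allowed. Among the others are 17 genes whose annotated transcripts end within 50 bases of the stop codon. Sequence past the annotated ends was not searched, so for these the stem-loop may lie beyond the annotation. The stretches below come from the GENCODE transcripts of the 10 genes with the motif that lay above 1 FPKM in wild-type hippocampus (a level per gene length, below) and of an example for each further form. They run 5′ to 3′, with the stem-loop in capitals.

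Hist1h1c: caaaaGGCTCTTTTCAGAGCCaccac
Hist2h2aa2: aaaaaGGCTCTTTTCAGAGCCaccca
Hist3h2a: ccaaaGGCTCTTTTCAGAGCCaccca
Hist3h2ba: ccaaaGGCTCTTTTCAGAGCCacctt
Hist1h2bg: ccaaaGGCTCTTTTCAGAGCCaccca
Hist1h2be: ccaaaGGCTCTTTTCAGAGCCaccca
Hist2h3c2: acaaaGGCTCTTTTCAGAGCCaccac
Hist1h3e: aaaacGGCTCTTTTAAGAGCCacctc
Hist2h2ac: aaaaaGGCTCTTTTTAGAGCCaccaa
Hist1h4h: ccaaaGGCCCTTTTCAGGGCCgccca
Hist1h4i: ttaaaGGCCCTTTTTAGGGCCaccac
Hist2h4: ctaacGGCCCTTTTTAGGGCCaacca

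Every H4 gene with the motif, 9 of 9, had a C-G pair at the fourth position of the stem, where the 33 genes of the other classes had a T-A pair. Within H4 the loop varied: 7 genes had the form of Hist1h4h, and Hist2h4 shared that of Hist1h4i. Outside H4 the form of Hist1h1c was found in 26 genes of all 4 classes. The form of Hist1h3e was found in 6 genes (Hist1h1t, Hist1h2bb, Hist1h2bk, Hist1h3c, Hist1h3e and Hist1h3f), and that of Hist2h2ac in 1. These are descriptions of the annotated transcripts and involve no measured value.

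Of the 67 genes, 37 had 10 or more counts over the 6 libraries together, 21 had 1 to 9 and 9 had none. For a gene without counts the total depth allows up to 0.0118 CPM (counts relative to the library total, from a limit of 3 counts), for counting error only. Class H1 had 4 genes with 10 or more counts: Hist1h1c, Hist1h1e, Hist1h1d and Hist1h1b. In H2A there were 7, namely Hist3h2a, Hist2h2aa2, Hist1h2ac, Hist1h2ad, Hist2h2ab, Hist1h2ah and Hist2h2ac. H2B had 12, which were Hist1h2bc, Hist3h2ba, Hist2h2be, Hist1h2be, Hist1h2bg, Hist1h2br, Hist2h2bb, Hist1h2bb, Hist1h2bh, Hist1h2bn, Hist1h2bp and Hist1h2bq. In H3 the 4 were Hist2h3c2, Hist1h3d, Hist1h3g and Hist1h3i. H4 had 10: Hist2h4, Hist1h4i, Hist1h4h, Hist1h4k, Hist1h4c, Hist1h4j, Hist1h4n, Hist1h4m, Hist1h4d and Hist4h4. The 9 genes without a count were Hist1h2aa, Hist1h2ag, Hist1h2an, Hist1h2ap, Hist2h2aa1, Hist1h2ba, Hist1h3a, Hist1h3c and Hist2h3c1. In every single library 19 genes reached 10 counts.

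The counts were concentrated in few genes. Of the 31940 counts of the family, Hist1h2bc took 21.9%, the 5 genes with the most counts (Hist1h2bc, Hist1h1c, Hist3h2a, Hist3h2ba and Hist2h2aa2) took 70.7%, and the first 10 took 91.4%. The large Hist1 cluster on chromosome 13 (GRCm38, 21715763 to 23934851) holds 54 of the genes and had 16519 counts. The Hist2 cluster on chromosome 3 (96219865 to 96270132) holds 10 and had 7482. The pair Hist3h2a and Hist3h2ba on chromosome 11 (58948920 to 58956830) alone had 7911, and the single gene Hist4h4 on chromosome 6 had 28.

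Levels of different genes were compared as FPKM, computed from the counts, the deposited gene length and the library total. In wild-type hippocampi 14 genes lay above 1 FPKM, and the order of classes was H2B with a summed 53.0 ± 7.28, H2A with 32.2 ± 3.80, H4 with 14.7 ± 3.17, H1 with 12.6 ± 3.34 and H3 with 4.98 ± 1.23 FPKM (mean ± SD, n = 3 mice). H4 and H1 differed by less than their SD between mice, but H4 was higher in each wild-type mouse. It had 12.7, 13.0 and 18.3 FPKM, against 10.9, 10.5 and 16.5 for H1. At the top Hist2h2aa2 (23.2 ± 2.53 FPKM), Hist1h2bc (23.0 ± 3.85) and Hist3h2ba (21.4 ± 1.88) could not be ranked, since each was the highest of the 3 in a different wild-type mouse. The linker histone gene Hist1h1c followed with 11.6 ± 2.82 FPKM and Hist3h2a with 7.16 ± 1.04. Hist1h4i (4.94 ± 1.86) and Hist2h3c2 (4.26 ± 1.21) differed by less than their SD, with Hist1h4i higher in each wild-type mouse. The values were 3.98, 3.75 and 7.08 against 3.44, 3.70 and 5.64 FPKM. Of the other genes above 1 FPKM, Hist2h2be, Hist1h4k, Hist2h4 and Hist1h4h lay between 2.33 and 2.91, and Hist1h2bg, Hist1h2be and Hist2h2bb between 1.20 and 1.65.

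**Figure D1:**
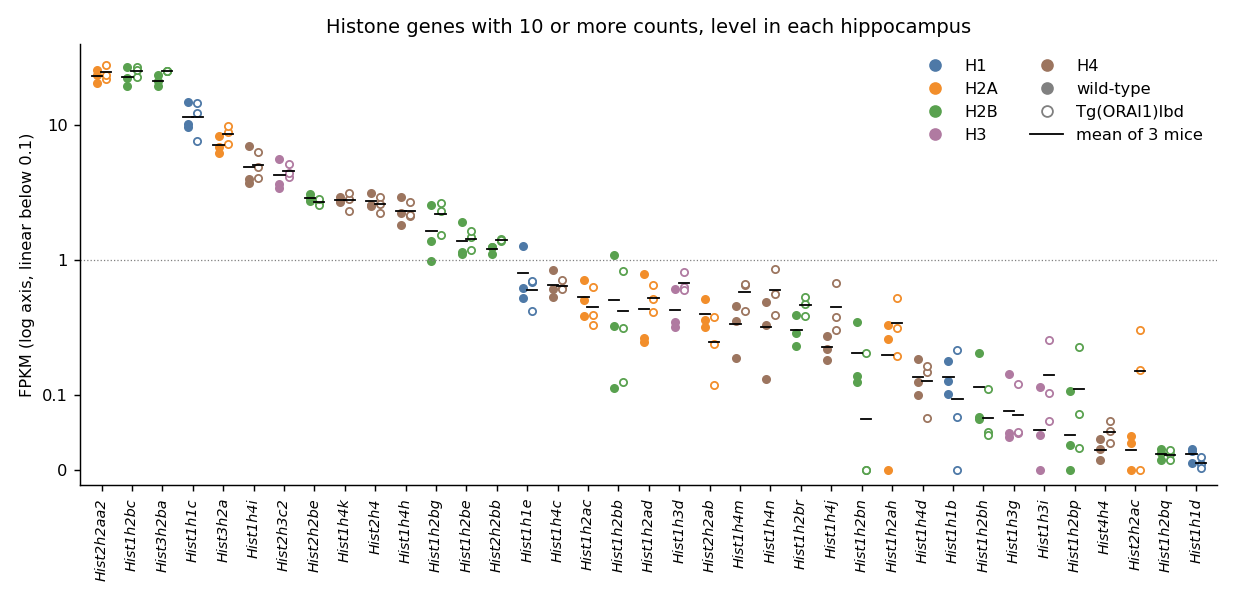
FPKM of the 37 histone genes with 10 or more counts, on a log axis that is linear below 0.1, for each wild-type (filled) and Tg(ORAI1)Ibd (open) hippocampus, with the mean of 3 mice as a line and the class as colour. From Hist2h2aa2 with a wild-type mean of 23.2 FPKM the levels fall below the dotted line at 1 FPKM after the 14th gene, Hist2h2bb, and in most genes the open and filled points overlap.

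In most classes 1 gene dominated. Hist1h1c gave 91.8% of the wild-type FPKM of H1, Hist2h3c2 85.5% of H3 and Hist2h2aa2 72.0% of H2A. In H2B the highest gene, Hist1h2bc, gave 43.3%, and in H4, where Hist1h4i was highest, 33.7%. Only Hist2h3c2 in H3 and Hist1h1c in H1 passed 1 FPKM, while 4 H4 genes and 6 H2B genes lay above 1 FPKM.

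Beside the replication-independent variants, which mostly have polyadenylated mRNAs, the family was the smaller share of what was counted. Of the summed FPKM of the 67 genes and the 14 variant genes listed, the family made up 29.8%, 30.0% and 35.5% in the wild-type and 31.3%, 34.3% and 33.4% in the transgenic libraries. The variant genes H3f3b (58.4 ± 2.08 FPKM) and H3f3a (22.7 ± 0.329), which encode H3.3, together stood far above the 4.98 ± 1.23 FPKM of all 12 H3 genes of the family (wild-type, n = 3 mice). For the linker histones, H1f0 alone had 53.7 ± 4.55 FPKM, against 12.6 ± 3.34 for the 6 H1 genes of the family. H2afz, the gene of H2A.Z, had 32.9 ± 0.705 FPKM, close to the 32.2 ± 3.80 of the 18 H2A genes.

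Genes with different annotated 3′ ends held different shares of the counts. In 21 genes the annotated transcript ran at least 100 bases past the stem-loop, and these had 58.0% of the counts of the family, a median of 173 counts, 8 genes above 1 FPKM and 13 at or below it. In another 21 the transcript ended within 100 bases of the stem-loop, with 11.7% of the counts, a median of 5 counts and 2 genes above 1 FPKM (Hist2h2aa2 and Hist1h4h). A further 8 genes ran on for 50 bases or more after the stop codon without a stem-loop and had 28.7% of the counts, nearly all of them in Hist1h2bc and Hist2h2be. The 17 genes whose annotation ended within 50 bases of the stop codon had 1.55%. A longer annotated end also takes up more fragments, so this describes annotation and counts together, with no test.

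The order of levels did not follow how far a transcript ran past the stem-loop. Of the genes above 1 FPKM, Hist1h1c runs 840 bases past its stem-loop, Hist3h2a 1643, Hist1h2be 1861, Hist2h4 1257, Hist2h3c2 377, Hist1h4i 330, Hist3h2ba 169 and Hist1h2bg 155. The 3 genes annotated furthest past it were lower: Hist1h1d runs 4884 bases at 0.021 FPKM, Hist4h4 2445 at 0.028 and Hist1h2ac 2010 at 0.54, and Hist2h3c1, with 1167, had no count. Hist1h2bc is annotated with 2 exons and 742 bases after the stop codon, none of which hold the motif, and Hist2h2be runs for 2192 bases after the stop codon without it. Hist2h2aa2, whose FPKM was not apart from that of Hist1h2bc, is the exception among the highest genes, with 35 bases after the stem-loop.

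**Figure D2:**
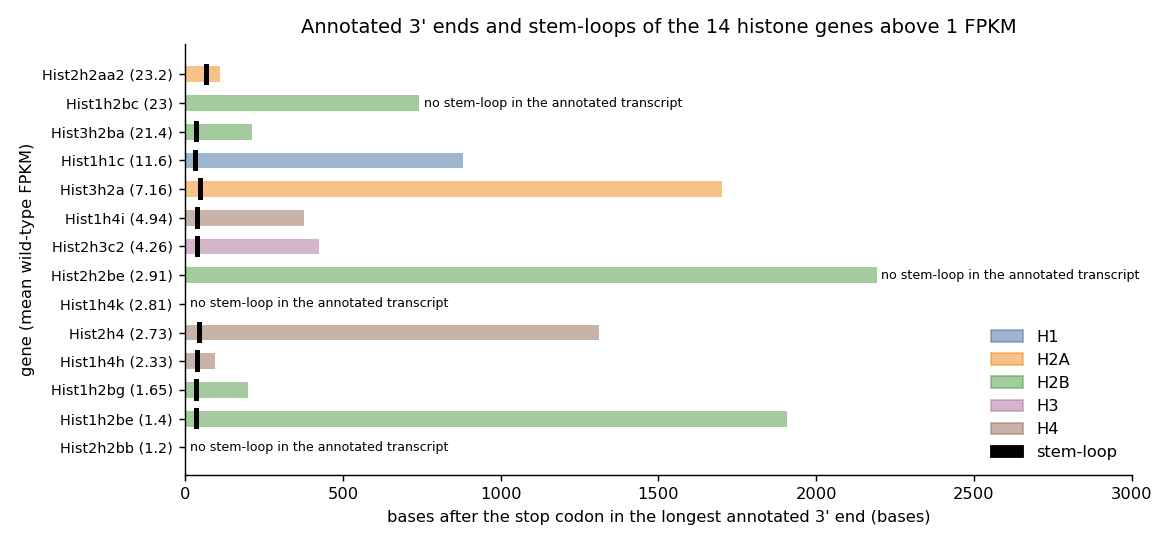
Annotated 3′ ends of the 14 histone genes above 1 FPKM in wild-type hippocampus, as bases after the stop codon (x axis, bases), ordered by their mean wild-type FPKM in brackets, with the stem-loop in black. The bars run from 0 bases for Hist1h4k and Hist2h2bb to 2192 for Hist2h2be, and 10 of the 14 genes hold a stem-loop.

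The promoters showed a second difference between classes. RefSeq promoters (GRCm38.p6, 250 bases before to 50 after the start) were matched for 61 of the 67 genes, and 3 motifs were searched on both strands. CCAAT, the box bound by NF-Y, was in 52 of 61 (85.2%), against 37.9% of the promoters of 27025 genes. All 49 matched genes of H1, H2A, H2B and H3 held it, but 3 of the 12 matched H4 genes did. TATAAA, the TATA box, was in 34 of 61 (55.7%), against 14.2% of all promoters. ATTTGCAT, the octamer bound by Oct-1 that is known from H2B promoters, was in 7 of 18 H2A and 6 of 16 H2B promoters and in none of the other classes, 13 of 61 (21.3%) in all, against 1.75% of all promoters. Some H2A and H2B genes lie head to head on opposite strands, such as Hist1h2ae and Hist1h2bg. Their searched windows can overlap, so the same motif can count for both genes and for both classes. No motif is contained in another. For the matched gene with the most FPKM in each class, the 150 bases before the RefSeq start are given 5′ to 3′ on the strand of the gene, with these motifs in capitals.

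Hist1h1c (chr13:23738657-23738806, plus strand): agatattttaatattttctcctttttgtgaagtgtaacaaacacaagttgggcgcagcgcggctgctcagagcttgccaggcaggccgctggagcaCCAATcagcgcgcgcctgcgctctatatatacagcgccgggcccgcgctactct
Hist2h2aa2 (chr3:96240375-96240524, minus strand): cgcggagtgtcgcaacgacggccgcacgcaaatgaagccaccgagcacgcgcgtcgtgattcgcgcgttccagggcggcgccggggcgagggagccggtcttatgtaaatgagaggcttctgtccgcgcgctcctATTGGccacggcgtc
Hist3h2ba (chr11:58948761-58948910, plus strand): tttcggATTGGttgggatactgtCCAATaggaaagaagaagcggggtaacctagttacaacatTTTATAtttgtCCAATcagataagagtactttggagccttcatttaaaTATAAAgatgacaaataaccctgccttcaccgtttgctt
Hist2h3c2 (chr3:96239128-96239277, minus strand): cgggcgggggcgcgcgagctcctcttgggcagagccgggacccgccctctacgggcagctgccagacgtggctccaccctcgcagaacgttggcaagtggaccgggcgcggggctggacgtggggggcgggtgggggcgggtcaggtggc
Hist1h4i (chr13:22041363-22041512, minus strand): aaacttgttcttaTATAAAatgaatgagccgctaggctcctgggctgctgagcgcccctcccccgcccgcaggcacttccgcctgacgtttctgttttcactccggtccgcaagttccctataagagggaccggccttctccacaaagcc

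The Hist3h2ba stretch holds 5 of the motifs, those of Hist1h1c, Hist2h2aa2 and Hist1h4i 1 each and that of Hist2h3c2 none. The CCAAT of Hist2h3c2 lies 14 bases after the RefSeq start. A match is a string of letters and says nothing about binding.

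Many of these genes cannot be told apart by a single read of 76 bases. The study's methods call the reads paired-end and also give their length as 1 × 76, and a pair could be placed where a single read could not, so the shares below describe single reads. Coding sequences of the same length had a median identity of 96.4% within H2A, 94.7% within H2B, 97.6% within H3 and 93.9% within H4. In 18 of the 67 genes under 25% of the runs of 76 bases in their transcripts were found in that gene alone, in 29 genes 25 to 75% and in 20 genes 75% or more. The counting used primary alignments, so a fragment that matches several copies equally well is held by 1 of them or by none. Hist2h2aa1 and Hist2h2aa2 show this most. All runs of Hist2h2aa2, with 3185 counts, also lie in other annotated genes, Hist2h2aa1 among them, and Hist2h2aa1, which Gm20634 covers on the same strand for 90.3% of its length, had none. Likewise Hist2h3c2 had 1130 counts, and Hist2h3c1, covered wholly by Gm20634, had none. The values of Hist2h2aa2, Hist2h3c2, Hist2h2bb, Hist1h2br and Hist1h4k are therefore uncertain as values of single genes. Hist2h4 and Hist2h2be shared no run with another gene, and Hist1h1c kept 93.4% of its runs to itself. On the same strand Hist3h2a overlaps Trim17 for 33.0% of its length and Hist2h2bb overlaps Gm42743 for 59.3%. Hist1h1e and Hist1h2be overlap each other and Gm11398, together for 25.7% of the length of Hist1h1e and 11.2% of that of Hist1h2be.

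The question the libraries were made for is which genes differ between Tg(ORAI1)Ibd and wild-type hippocampi. The labels were checked with Orai1, which had 376, 302 and 306 counts in the wild-type and 14620, 12634 and 11834 in the transgenic libraries. Total counts were 37710188 to 52497799 in the wild-type and 37414241 to 47027279 in the transgenic libraries, and edgeR's quasi-likelihood test was run on 19087 genes. Of the 67 histone genes 20 passed its filter on low counts, 2 of H1, 4 of H2A, 7 of H2B, 2 of H3 and 5 of H4, and the other 47 had no test.

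No replication-dependent histone gene differed between the genotypes at an adjusted p under 0.05, while 7.10% of all genes tested did. At an unadjusted p under 0.05 edgeR gave 3 of the 20 (Hist3h2ba, Hist1h2br and Hist1h3d, all with higher transgenic values) against 27.8% of all genes. With DESeq2's Wald test, none of the 16 histone genes given an adjusted p had it under 0.05, while 2230 of the 19087 genes did. This test gave no adjusted p to Hist1h2ad, Hist1h3d, Hist1h4c and Hist2h2bb. The transgenic and wild-type CPM did not overlap in 2 of the 20, Hist3h2ba and Hist2h2bb, against 34.9% of all genes. The log2 fold changes of the 20 ran from -0.40 to 0.69 with a median of 0.073, 14 above and 6 below 0, and the median of all genes tested was -0.010. With offsets for GC content the median of the 20 was 0.034, with 12 above and 8 below 0 and a median of all genes of 0.020. With offsets for gene length it was 0.018, with 10 above and 10 below 0 and a median of all genes of 0.0085. The median standard error of the 20 was 0.23, against 0.10 for all genes tested, so small differences were not detectable in most of them.

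**Figure D3:**
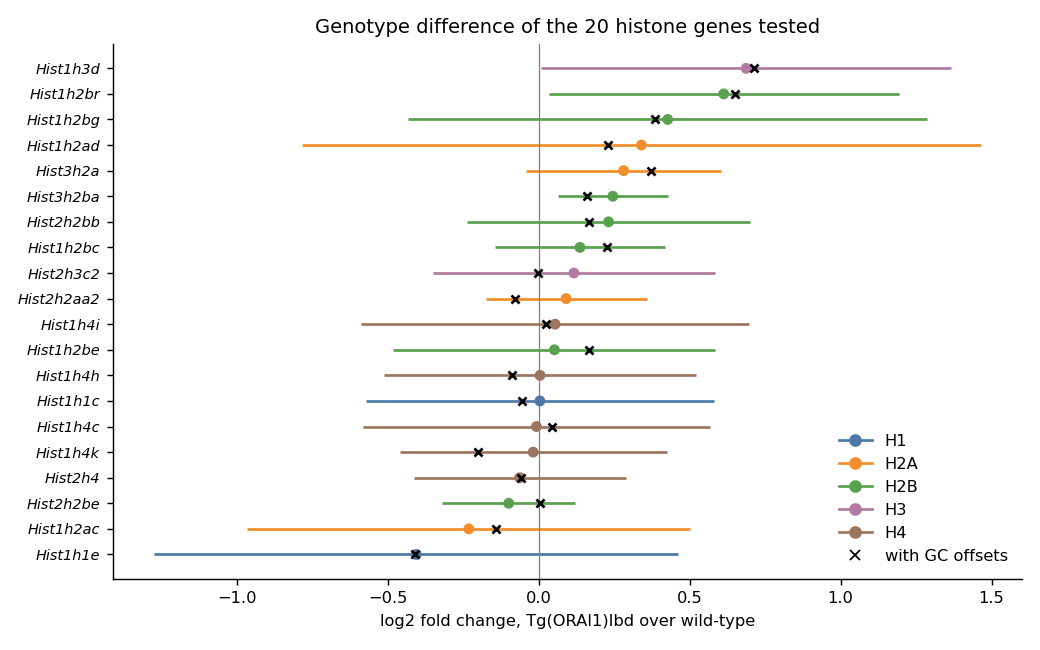
Log2 fold change of the 20 histone genes tested, Tg(ORAI1)Ibd over wild-type, with the 95% interval of edgeR's fit as a line, the class as colour and the value with GC offsets as a cross. Values run from -0.40 for Hist1h1e to 0.69 for Hist1h3d, and the intervals of Hist3h2ba, Hist1h2br and Hist1h3d lie above 0 before adjustment.

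Among the highest genes of each class the groups overlapped. Hist1h1c (chromosome 13, 23738808 to 23740367), the gene of linker histone H1.2, had 16.0, 15.1 and 23.0 CPM in the wild-type and 12.1, 23.0 and 19.3 CPM in the transgenic libraries. Wild-type mouse 3 and transgenic mouse 2 were high and transgenic mouse 1 was low. The log2 fold change was 0.0043 (standard error 0.25, edgeR adjusted p = 0.994). Its 95% interval ran from -0.57 to 0.58. Leaving out 1 mouse moved it from -0.18, without transgenic mouse 2, to 0.23, without transgenic mouse 1.

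The H2A gene Hist2h2aa2 (chromosome 3, 96239749 to 96240276) had 10.9, 12.4 and 13.5 CPM in the wild-type and 11.8, 14.8 and 12.5 CPM in the transgenic libraries. The groups overlapped, with a log2 fold change of 0.091 (standard error 0.11, edgeR adjusted p = 0.652), which ran from 0.015 without transgenic mouse 2 to 0.17 without wild-type mouse 3. Its sign turned with offsets, to -0.077 with those for GC content and -0.015 with those for gene length. Hist1h2bc (chromosome 13, 23684199 to 23692908), the H2B gene with the most counts, had 22.6, 25.7 and 31.2 against 26.5, 31.4 and 29.5 CPM. Here wild-type mouse 3 lay as high as the highest transgenic mouse, and the log2 fold change was 0.14 (standard error 0.12, edgeR adjusted p = 0.505). It was 0.047 without wild-type mouse 1 and 0.28 without wild-type mouse 3.

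The H3 gene Hist2h3c2 (chromosome 3, 96238108 to 96239127) had 3.52, 3.77 and 5.73 CPM in the wild-type and 4.29, 5.24 and 4.54 CPM in the transgenic libraries. Its highest value was again that of wild-type mouse 3, and the log2 fold change was 0.12 (standard error 0.20, edgeR adjusted p = 0.746). It was -0.0034 without wild-type mouse 1 and 0.37 without wild-type mouse 3. For the H4 gene Hist1h4i (chromosome 13, 22040636 to 22041362) the values were 2.90, 2.73 and 5.13 against 2.96, 3.56 and 4.62 CPM. Wild-type mouse 3 was highest of all 6, and the log2 fold change was 0.055 (standard error 0.28, edgeR adjusted p = 0.922). It ran from -0.11 without transgenic mouse 3 to 0.40 without wild-type mouse 3.

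Hist3h2ba (chromosome 11, 58948920 to 58949533), an H2B gene beside Hist3h2a, had the smallest adjusted p of the family and was singled out for it after the values were seen. It had 13.1, 12.1 and 14.3 CPM in the wild-type and 15.6, 15.6 and 15.6 CPM in the transgenic libraries. The 3 transgenic values were nearly equal and lay above all wild-type values. The log2 fold change was 0.25 (standard error 0.078, edgeR adjusted p = 0.0940), or 0.16 with GC offsets (edgeR adjusted p = 0.290).

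Its neighbour Hist3h2a, an H2A gene named after its values were seen, had 14.8, 13.5 and 17.8 CPM in the wild-type and 15.6, 19.2 and 21.2 CPM in the transgenic libraries. The groups overlapped, with a log2 fold change of 0.28 (standard error 0.14, edgeR adjusted p = 0.232).

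Among the members tested, the 3 highest fold changes were those of low genes. Hist1h3d had 0.439, 0.403 and 0.766 CPM in the wild-type and 0.793, 1.02 and 0.748 CPM in the transgenic libraries, a log2 fold change of 0.69 (edgeR adjusted p = 0.176). One transgenic value lay below the highest wild-type value. Hist1h2br, which shares most of its runs with Hist1h2bq, had 0.516, 0.640 and 0.872 against 0.858, 1.05 and 1.17 CPM, a log2 fold change of 0.61 (edgeR adjusted p = 0.160). Hist1h2bg had 0.611, 0.853 and 1.58 against 0.965, 1.65 and 1.44 CPM, a log2 fold change of 0.43 (edgeR adjusted p = 0.495). It was 0.16 without wild-type mouse 1, 0.28 without transgenic mouse 2 and 0.89 without wild-type mouse 3.

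At the other end of the members tested Hist1h1e, a linker histone gene, had 1.01, 1.21 and 2.46 CPM in the wild-type and 0.815, 1.34 and 1.36 CPM in the transgenic libraries. Its log2 fold change of -0.40 (edgeR adjusted p = 0.525) rested on wild-type mouse 3, without which it was 0.076. It was -0.19 without transgenic mouse 1 and -0.64 without wild-type mouse 1. Hist1h2ac had 0.955, 1.26 and 1.77 against 0.836, 0.970 and 1.58 CPM, a log2 fold change of -0.23 (edgeR adjusted p = 0.678). It ran from -0.53 without transgenic mouse 3 to 0.030 without wild-type mouse 3. Hist2h2be, an H2B gene with no stem-loop in its annotated 3′ end, had 6 values that lay closer together. They were 7.22, 8.15 and 7.50 against 7.16, 6.68 and 7.51 CPM, a log2 fold change of -0.099 (edgeR adjusted p = 0.541), or -0.032 without wild-type mouse 2 or transgenic mouse 2.

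Libraries of one genotype differed in the level of many of these genes. Summed over the 67 genes the CPM was 108.6, 111.8 and 146.3 in the wild-type and 115.5, 141.8 and 139 in the transgenic libraries, 122.2 ± 20.9 against 132 ± 14.5 (SD, n = 3 each). Wild-type mouse 3 lay above all transgenic mice and transgenic mouse 1 lay near wild-type mice 1 and 2. Of the 20 genes tested, 17 (85.0%) were highest in mouse 3 among the wild-type libraries, against 36.4% of all genes tested, and 13 (65.0%) were lowest in mouse 1 among the transgenic libraries, against 40.9%. These shares were looked up after the values had been seen. In H1 the sums were 17.3, 16.5 and 26.0 against 13.0, 24.4 and 21.1 CPM, with an SD of 26.4% of the mean in the wild-type and 30.2% in the transgenic libraries. In H2A they were 27.3, 27.5 and 33.9 against 28.9, 35.5 and 36.2 CPM, with an SD of 12.7% and 11.9%. In the other classes the transgenic libraries varied less than the wild-type ones, with an SD of 6.30% against 14.6% in H2B, 10.6% against 27.1% in H3 and 7.21% against 21.5% in H4.

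**Figure D4:**
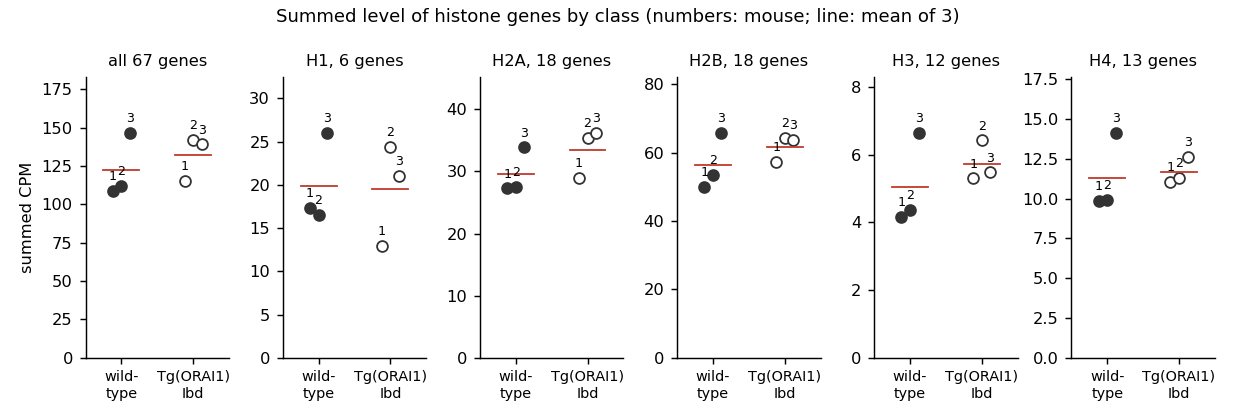
Summed CPM of all 67 histone genes and of each class in the 3 wild-type (filled) and 3 Tg(ORAI1)Ibd (open) libraries, with mouse numbers beside the points and the mean of 3 mice as a red line, on axes that start at 0. The groups overlap in every panel, and wild-type mouse 3 is the highest wild-type library in each.

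Some other measures were ordered in the same way. The libraries with the lowest sums, wild-type 1, wild-type 2 and transgenic 1, were the deepest of the 6, with 52497799, 42154842 and 47027279 counts. The summed CPM of 4 astrocyte markers was 1664, 1711 and 1755 in these 3 and 2418, 2420 and 2285 in wild-type 3, transgenic 2 and transgenic 3. Most of this came from Gfap, with 323, 355 and 386 against 836, 922 and 840 CPM, while Aldoc was highest in transgenic 1, with 658 CPM. For 4 microglia markers the sum was 161, 174 and 159 against 214, 242 and 225. Of the 7 marker lists 3 had this order in their sums, the third being endothelium. There transgenic 1, with 112.5 CPM, lay just below wild-type 3, with 114.4. Of its 3 markers Pecam1 followed the order, while Cldn5 and Flt1 did not. Oligodendrocyte markers, with 3942, 4694 and 5170 against 5307, 4991 and 5667, and those of neurons and choroid plexus did not. Erythroid markers had the opposite order, with 226.1, 228.6 and 210.9 against 161.1, 198.5 and 114.8 CPM. The part of depth and of cell makeup in the levels of the histone genes was not tested, and in whole tissue fewer cells of a type and less RNA per cell cannot be told apart. The choroid plexus markers, of which 10 of 10 were lower in transgenic mice at an adjusted p under 0.05, followed the genotype, with 2336 to 4277 CPM in the wild-type and 235 to 464 CPM in the transgenic libraries, and their part was not tested either.

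Which mouse was left out moved the median of the family most. Without wild-type mouse 3 the median log2 fold change was 0.32, with 21 of 23 tested genes (91.3%) above 0, against 49.9% of all genes in that fit, and 9 (39.1%) at an unadjusted p under 0.05, against 27.8% of all genes. Without transgenic mouse 1 it was 0.20. Leaving out wild-type mouse 1 gave -0.0034, with 11 of 23 (47.8%) above 0, against 50.4% of all genes. In none of these fits did a histone gene reach an adjusted p under 0.05 with edgeR, and the smallest was 0.0621, without wild-type mouse 3.

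**Figure D5:**
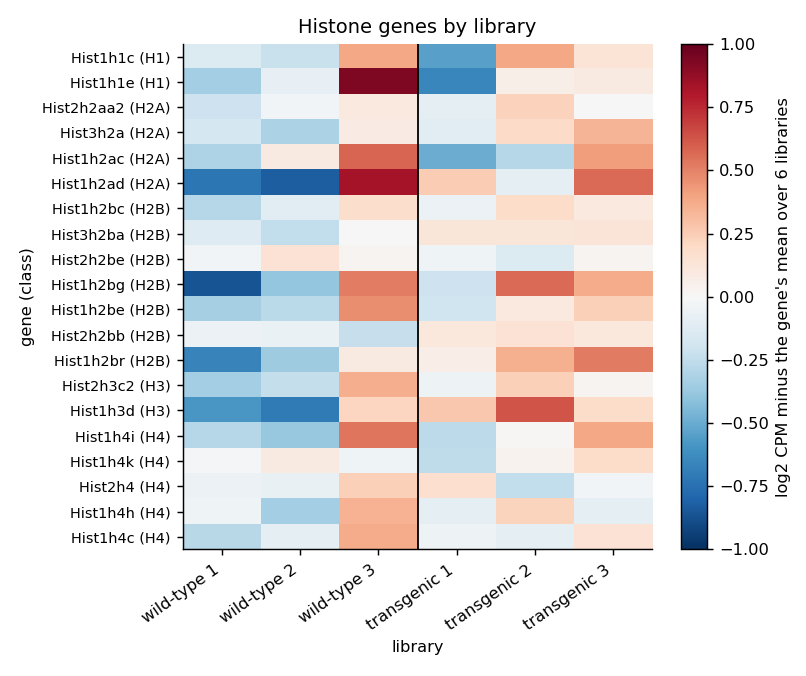
Log2 CPM of the 20 histone genes tested in each library, as the difference from the mean of the gene over the 6 libraries (colour, from -1 to 1). The column of wild-type 3 is mostly red, with differences up to 0.94, and the columns of wild-type 1, wild-type 2 and transgenic 1 are mostly blue, down to -0.86.

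The genes that make, process and carry histone mRNA and protein were read from the same fit. Their counts stand beside the 7.10% of all genes tested with an adjusted p under 0.05 and the 27.8% with an unadjusted p under 0.05. Of the replication-independent variants 11 of 14 were tested and 1 was higher and none lower at an adjusted p under 0.05 (9.09%), 4 at an unadjusted p under 0.05 (36.4%), with a median log2 fold change of 0.084. It was H1fx, a linker histone variant, with 26.9 ± 0.512 CPM in the wild-type and 32.5 ± 0.949 CPM in the transgenic libraries, a log2 fold change of 0.27 (edgeR adjusted p = 0.0284). With GC offsets this fold change was 0.0094 (edgeR adjusted p = 0.948). H3f3b had 173.7 ± 6.63 against 161.8 ± 13.8 CPM, H3f3a 79.5 ± 1.40 against 80.5 ± 6.74 and H2afz 58.4 ± 1.20 against 62.7 ± 1.58, with edgeR adjusted p = 0.367, 0.894 and 0.176.

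In the list of transcription and 3′ processing factors of histone mRNA, 21 of 21 were tested, with 1 higher and 2 lower at an adjusted p under 0.05 (14.3%), 9 at an unadjusted p under 0.05 (42.9%) and a median of 0.024. Upf1, the helicase needed for the decay of histone mRNA when replication stops, rose from 66.8 ± 1.10 to 81.3 ± 2.39 CPM (log2 fold change 0.29, edgeR adjusted p = 0.0189). The exonuclease gene Xrn1 fell from 58.1 ± 3.79 to 44.9 ± 2.97 CPM (log2 fold change -0.37, edgeR adjusted p = 0.0291). Cstf2, a cleavage stimulation factor, fell from 130.5 ± 7.21 to 109.5 ± 4.56 CPM (log2 fold change -0.25, edgeR adjusted p = 0.0423). With GC offsets their log2 fold changes were 0.19, -0.20 and -0.16, with edgeR adjusted p = 0.0709, 0.124 and 0.125. Upf1, Xrn1 and Cstf2 all act on many other mRNAs too. Slbp, the stem-loop binding protein, had 21.5 ± 0.786 against 21.3 ± 0.959 CPM, a log2 fold change of -0.019 (edgeR adjusted p = 0.870). Npat, the coactivator of histone genes in S phase, had 33.4 ± 1.21 against 28.8 ± 2.30 CPM, a log2 fold change of -0.22 (edgeR adjusted p = 0.0962), or -0.024 with GC offsets.

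Of the 17 histone chaperone genes all were tested, with none higher and 1 lower at an adjusted p under 0.05 (5.88%), 5 at an unadjusted p under 0.05 (29.4%) and a median of 0.028. The gene that fell was Atrx, which works with Daxx in placing H3.3, from 240.5 ± 17.4 to 185 ± 11.1 CPM (log2 fold change -0.38, edgeR adjusted p = 0.0279), or -0.18 (edgeR adjusted p = 0.123) with GC offsets. The 5 calls in these lists (H1fx, Upf1, Xrn1, Cstf2 and Atrx) lay near the threshold, and without wild-type mouse 1, wild-type mouse 2 or transgenic mouse 3 none of them was made, with edgeR adjusted p = 0.0723 to 0.166. Without wild-type mouse 3 there were 3, without transgenic mouse 1 there were 4 and without transgenic mouse 2 there was 1. Over all genes the reported fit made 1355 calls, against 77 without wild-type mouse 1, 94 without wild-type mouse 2 and 108 without transgenic mouse 3. For the fits without wild-type mouse 3, transgenic mouse 1 or transgenic mouse 2 these calls were 1031, 1149 and 192.

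Among genes of S phase and cell division, 27 of 29 were tested and 0 passed an adjusted p under 0.05 with edgeR, 5 at an unadjusted p under 0.05 (18.5%, against 27.8% of all genes), with a median of 0.076. The proliferation gene Mki67 had 1.26, 1.54 and 1.69 CPM in the wild-type and 1.01, 2.80 and 1.39 CPM in the transgenic libraries, and the topoisomerase gene Top2a 1.34, 1.87 and 2.11 against 1.31, 3.64 and 1.23. In both transgenic mouse 2 was highest. Their edgeR adjusted p was 0.753 and 0.784. Pcna, the replication clamp, had 29.4 ± 1.56 against 28.4 ± 0.613 CPM (edgeR adjusted p = 0.630). Among genes of neuroblasts and newborn granule cells 0 of 10 passed an adjusted p under 0.05 with edgeR, 3 at an unadjusted p under 0.05 (30.0%, near the 27.8% of all genes), with a median of 0.10. Their directions differed, with 6 higher and 4 lower. Dcx, a microtubule protein of young neurons, had 33.4, 29.2 and 31.9 against 20.7, 23.4 and 30.3 CPM, a log2 fold change of -0.35 (edgeR adjusted p = 0.143), or -0.18 with GC offsets. Sox11, a transcription factor of such cells, named after its values were seen, had 18.2, 16.4 and 28.5 against 22.2, 39.6 and 46.0 CPM, a log2 fold change of 0.77 (edgeR adjusted p = 0.138).

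The tissue label was checked with marker genes. The 7 hippocampal neuron markers summed to 2266 to 2292 CPM in the wild-type and 2392 to 2579 CPM in the transgenic libraries, and no marker of neurons was at 0. Of these, Slc17a7 was higher in transgenic mice (log2 fold change 0.26, edgeR adjusted p = 0.0356). With GC offsets it had 0.18 and an edgeR adjusted p = 0.110. Of the 3 endothelial markers Cldn5 was higher (log2 fold change 0.66, edgeR adjusted p = 0.0430), and with GC offsets it had 0.53 and an edgeR adjusted p = 0.106. No astrocyte, oligodendrocyte, microglia or erythroid marker passed the threshold.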

How the data were processed

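Hippocampal RNA of 6 females was sequenced with a read length of 76 bases, described both as paired-end and as 1 × 76. The counting was set to pairs. Per the labels the authors used Trimmomatic, STAR (mm10) and featureCounts (1.5.0-p1 in the file header). They deposited counts, whole numbers of fragments per gene without normalization, beside gene lengths. Fragments were counted by strand (setting 2) from primary alignments with a mapping quality of at least 3, on Ensembl 95.

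Members were the protein-coding genes with matching symbols, without 3 pseudogenes. Of 54838 genes 54809 were found in GENCODE M21. Members and lists were chosen with earlier results of these data known. CPM are counts divided by the TMM-scaled total, and FPKM were computed from counts, lengths and totals. After filterByExpr (minimum count 10) and TMM scaling, genotypes were compared by the quasi-likelihood test of edgeR without covariates, with Benjamini-Hochberg adjustment over 19087 genes and a threshold of 0.05. An exact permutation test of 3 mice against 3 cannot go below p = 0.1. Totals of 37414241 to 52497799 counts limit the precision of low genes. DESeq2's size factors and Wald test, library totals, upper quartile, limma-voom, other filters, a replicate block, loess offsets (span 0.5) and leaving out each mouse were tried. In a simulated draw, with fold changes set unlike those of the data, the fit made more false calls than the threshold of 0.05 allows. A single draw gives no error for that rate. Calls near the threshold may be less certain than their adjusted p says, and by how much was not measured.

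Named with values per library are the gene with the most wild-type FPKM in each class, members with an adjusted p under 0.05 (none), and the 3 largest and 3 smallest log2 fold changes among members tested. From each list the genes with an adjusted p under 0.05 are named, and always Slbp, Npat, H3f3b, H3f3a, H2afz, Mki67, Top2a, Pcna and Dcx. Hist3h2ba, Hist3h2a, H1f0, Sox11, Gfap, Aldoc and the genes singled out for sequences, 3′ ends or shared runs were chosen after their values were seen. Versions were R 4.3.3, edgeR 4.0.16, limma 3.58.1, DESeq2 1.42.0 and Python 3.11.15, with pandas 2.3.3 and matplotlib 3.10.9.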

Additional observations from a re-analysis of the deposited data

How the results depend on the processing

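No histone gene with an adjusted p was under 0.05 in any of the 18 alternatives to the reported fit, which had between 19 and 58 histone genes tested. With each mouse left out, 1 to 9 of the histone genes (4.35 to 39.1%) had an unadjusted p under 0.05, against 18.4 to 28.0% of all genes. DESeq2's Wald test gave an adjusted p to 16 of its 20. The family's median log2 fold change of 0.073 stayed between 0.018 and 0.10 under the other scalings, tests, filters and offsets. With each mouse left out it ran from -0.0034 to 0.32. Over these alternatives 12 of the 20 members had fold changes of both signs, none of them called, and 8 kept 1 sign (Hist1h2ad, Hist1h2bc, Hist1h2bg, Hist1h2br, Hist1h3d, Hist2h2bb, Hist3h2a and Hist3h2ba). Over all genes, 591 were higher and 764 lower, and with each mouse left out 11 to 466 were higher and 66 to 683 lower. DESeq2's Wald test gave 1055 higher and 1175 lower, GC offsets 155 and 242, and length offsets 396 and 366. Of the related lists 5 genes were called. Of these 5, none was called with GC offsets, 1 with length offsets and 0 to 4 with each mouse left out. Other listed genes called in those fits are not counted here. With TPM in place of FPKM 24 instead of 14 members lay above 1.

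The replicate numbers do not pair the mice: same-numbered mice correlated at 0.398, -0.357 and 0.388 across 11191 genes. In the fit with the replicate block 263 genes were higher and 475 lower, and the family's median was 0.086. Of the 5 listed genes called in the reported fit, 2 were called. The block with GC offsets gave 147 and 313 with 0 of these 5 called, and the block with length offsets 227 and 340 with 1 of them. The causes of these changes were not tested. Counting limits the low members: 47 of 67 had no test.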
